A study of Mus musculus with 34 samples.

Results

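Wild-type prefrontal cortex (PFC) was compared with wild-type hippocampus, using the 6 libraries of each region, 12 of the 34 libraries in the series. All mice were untreated males of the strain C57BL/6J, aged 56 days (postnatal day 56). The series studies a heterozygous Myt1l mutation in PFC, hippocampus and striatum, and the wild-type groups carry no Myt1l mutation by their labels. The labels name the dissected region but not its borders, and they do not say whether each library came from its own animal, so the p-values measure the spread between these libraries, which may in part be technical. The 10 heterozygote libraries of PFC and hippocampus (5 each) carry the Myt1l mutation and share strain, sex and age. They and the 6 wild-type striatum libraries are used below only to place values side by side.

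PFC and hippocampus are both parts of the pallium. The PFC is layered neocortex, in which upper-layer neurons connect cortical areas and deep-layer neurons project below the cortex. The hippocampus holds the granule cells of the dentate gyrus and the pyramidal cells of the fields CA1 to CA3, linked in a chain of synapses. Transcription factors hold these cell types apart, receptors and channels set how their neurons answer transmitters and fire, and adhesion and guidance proteins shape and keep their connections.

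All values below are the deposited values, read counts after scaling, and are called normalized counts. Whether the scaling used a single factor per library or also factors per gene was not tested. A gene was tested where its mean over the 12 libraries was at least 10. That left 16821 of 18548 genes. Differences are PFC minus hippocampus on log2(normalized count + 1), with the standard error (SE) of limma's model, and folds are on the same scale, which understates the change of low genes. A gene is called higher in a region at an adjusted p under 0.05, adjusted by the Benjamini-Hochberg method across the whole set of tested genes. The summed normalized counts ran from 29092563 to 29798959 in PFC and from 27469738 to 27871456 in hippocampus. In all, 3 libraries stood apart from their groups: hippocampus 6 held few reads of choroid plexus genes, PFC 1 was lowest in oligodendrocyte genes, and PFC 6, wild type by its label, carries a sample code in the table's header that 1 heterozygote library of hippocampus and 1 of striatum carry too. That code begins with 31 where the other PFC codes begin with 35 or 37. Without PFC 6, 703 genes were over 2-fold higher in PFC and 766 in hippocampus, against the 708 and 765 given below. Normalized counts are a share of each library, so fewer cells of a type and less RNA per cell cannot be told apart in these bulk samples.

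In the wild-type libraries 3916 genes (23.3%) were higher in PFC and 3973 (23.6%) were higher in hippocampus. Differences over 2-fold were found for 708 genes (4.21%) toward PFC and 765 (4.55%) toward hippocampus. Scaling every library to the same total changed the balance of the calls to 2945 higher in PFC and 5736 higher in hippocampus, and that of the 2-fold calls to 598 and 852; it moved the median difference over all genes from -0.01 to -0.10. The steepest differences lay on the hippocampal side, where 133 genes were over 8-fold higher against 53 in PFC. All 6 PFC libraries were above all 6 hippocampus libraries for 2605 genes (15.5%), and the reverse held for 2302 (13.7%). Without the 3 libraries that stood apart the 2-fold counts were 675 and 758, and among the 4 libraries per region with a code starting in 35 they were 684 and 773.

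The 4 classes described here were chosen by gene symbol. Calls in either direction were made for 46.9% of all genes tested. The share was 57.8% among transcription factors, 65.3% among receptors, 69.6% among channels and 65.2% among adhesion and guidance genes. Counts of families and marker lists below are to be read against these shares. Of 507 transcription factor genes tested, 28 were over 2-fold higher in PFC and 42 in hippocampus, which is 13.8% in either direction against 8.76% of all genes tested. Of 331 receptor genes, 34 were over 2-fold higher in PFC and 42 in hippocampus (23%). Of 214 channel genes the counts were 21 and 19 (18.7%), and of 397 adhesion and guidance genes 24 and 48 (18.1%). Under equal library totals these counts were 23 and 48 for transcription factors, 28 and 45 for receptors, 16 and 19 for channels, and 20 and 50 for adhesion and guidance genes, so that the 2-fold channel genes then leaned toward hippocampus.

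**Figure D1:**
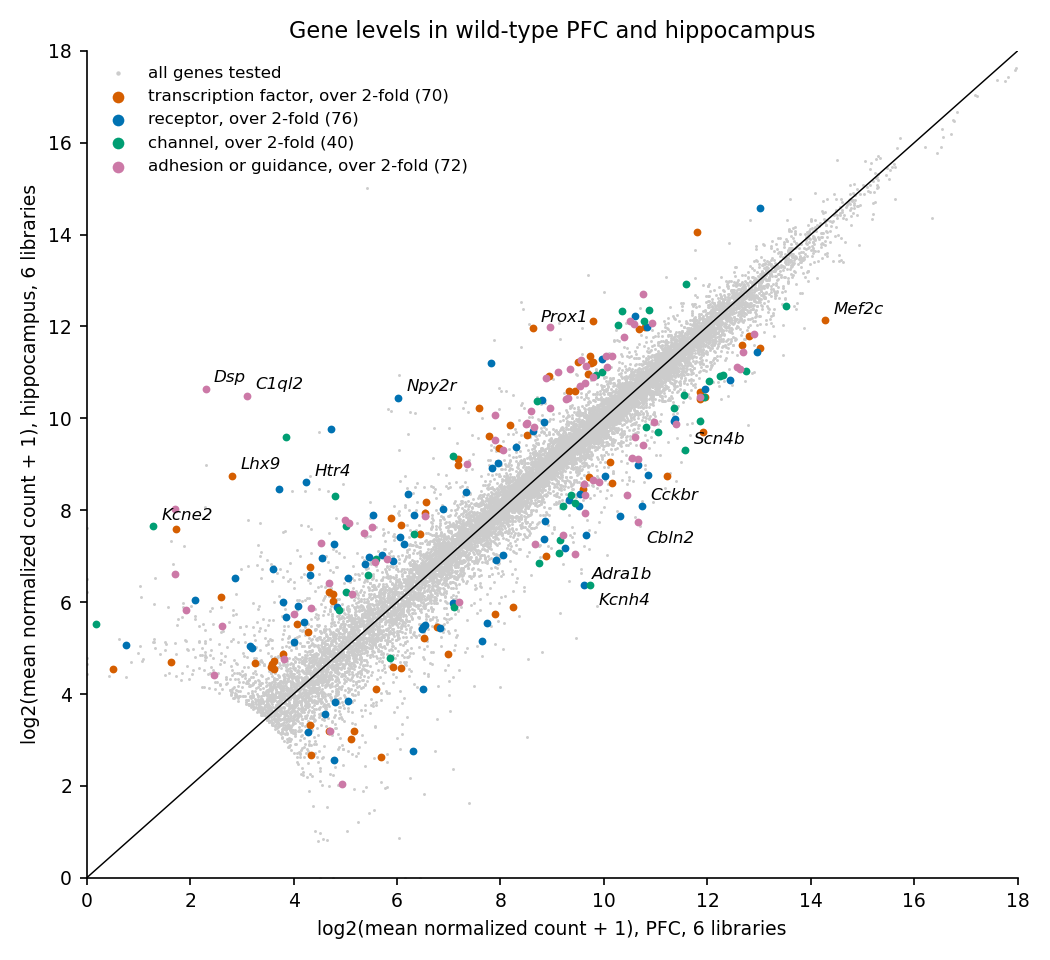
Mean level of each gene tested in PFC (x axis) and hippocampus (y axis), as log2(mean normalized count + 1) over the 6 wild-type libraries of each region, with the line of equal levels. Coloured points are the genes of the 4 classes that were over 2-fold apart, 70 transcription factors, 76 receptors, 40 channels and 72 adhesion or guidance genes, and the points farthest from the line, among them Dsp and C1ql2, lie on the hippocampal side.

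The transcription factors that were highest above hippocampus in PFC included factors of cortical projection neurons, and those with the opposite difference included the defining factor of dentate granule cells. Cux2, a homeobox gene of upper-layer neurons, had a lowest, median and highest value of 3289, 3859 and 4321 in PFC and of 664, 732 and 1258 in hippocampus. It was 4.73-fold higher in PFC (log2 difference 2.24, SE 0.15, adjusted p = 3.14e-08), and the groups did not overlap. Mef2c, a factor that controls synapse number in response to activity, ran from 18710 to 21630 (median 19660) in PFC and from 3674 to 5541 (median 4326) in hippocampus, a 4.46-fold difference (log2 2.16, SE 0.078, adjusted p = 8.47e-12). Foxp2, found in deep-layer neurons and in striatum, was at 220.1 to 419 in PFC and 48.6 to 72.6 in hippocampus, and its mean in wild-type striatum was 1378 ± 85.1 (SD, n = 6). Tbr1, a T-box factor of deep-layer neurons, was also higher in PFC (log2 difference 1.43, SE 0.062), and so were Meis2, a TALE homeobox gene (1.5), and Pou3f2, a POU factor of upper-layer neurons (1.56).

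On the hippocampal side Prox1, the homeobox factor that keeps dentate granule cells in their fate, was at 312 to 434 in PFC (median 400.4) and at 3442 to 4261 in hippocampus (median 4094). All hippocampus libraries lay far above all PFC libraries, 10.2-fold on average (log2 difference -3.35, SE 0.074, adjusted p = 7.96e-16). Lhx9, a LIM homeobox gene, was at 0 to 18.6 in PFC and at 375 to 507 in hippocampus (log2 difference -6.45, SE 0.51, adjusted p = 1.21e-07), and it was also present in striatum at 274 ± 80.8 (SD, n = 6). Nr3c2 encodes the mineralocorticoid receptor, a nuclear receptor for corticosterone and aldosterone. It ran from 824 to 933 in PFC and from 4015 to 4919 in hippocampus, 4.99-fold (log2 difference -2.32, SE 0.050). Its paralog for glucocorticoids, Nr3c1, went the other way by a small step, with means of 3043 ± 396 in PFC and 2285 ± 109 in hippocampus (SD, n = 6 each; log2 difference 0.40, SE 0.068, adjusted p = 0.000106). Zbtb20, a zinc-finger repressor of hippocampal pyramidal and granule neurons, was 4.80-fold higher in hippocampus (log2 difference -2.26, SE 0.099). Trp73, a p53-family gene of Cajal-Retzius and ependymal cells, was at 7.13 to 32.5 in PFC and 81.6 to 156 in hippocampus.

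St18 is the third gene of the Myt1 zinc-finger family, to which the mutated gene of this series belongs. It was 6.54-fold higher in hippocampus (117 to 338 in PFC, 804 to 1489 in hippocampus; log2 difference -2.71, SE 0.25). Myt1 was also higher in hippocampus (log2 difference -0.84, SE 0.11, adjusted p = 4.58e-06). Myt1l itself ran from 5578 to 7992 in PFC and from 5552 to 7186 in hippocampus, and did not pass the test (log2 difference 0.09, SE 0.080, adjusted p = 0.365). PFC 6 held the highest of the PFC values, and the heterozygote means (6820 in PFC, 6896 in hippocampus) were not below the wild-type ones (6650 and 6216), so this gene's level does not check the genotype labels.

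Among all genes tested 23.3% were higher in PFC and 23.6% in hippocampus, and families of transcription factors are set against these shares. Of 27 KLF, SP and EGR zinc-finger genes, 12 were higher in PFC and 5 in hippocampus, and of 36 nuclear receptors 19 and 8. Of 105 other C2H2 zinc-finger genes, 16 were higher in PFC and 40 in hippocampus, and of 67 basic helix-loop-helix genes 16 and 22, the former near the share of all genes. Equal library totals changed these counts to 11 and 7 for KLF, SP and EGR genes, 16 and 8 for nuclear receptors, 14 and 46 for other C2H2 genes and 16 and 31 for basic helix-loop-helix genes. Egr1, Egr2 and Egr3, early-response zinc-finger factors, were higher in PFC with log2 differences of 1.47 (SE 0.12), 2.22 (SE 0.24) and 1.08 (SE 0.082). Nr4a2, an orphan nuclear receptor, and Jun, a subunit of the AP-1 factor, were higher in hippocampus with -1.98 (SE 0.11) and -1.46 (SE 0.055). Egr2 ran from 190.0 to 326 in PFC and from 22.1 to 80.7 in hippocampus, and its log2 difference in the heterozygote libraries was 1.42 (SE 0.27).

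Pparg, a nuclear receptor for fatty acids, was 4.56-fold higher in PFC, at 110.4 to 144 against 14.8 to 41.1. Its log2 difference was 2.19 (SE 0.20, adjusted p = 7.01e-08), and its mean in striatum was 21.3 ± 7.87 (SD, n = 6), close to its hippocampal mean of 28.2. Neurod1, a basic helix-loop-helix factor of granule neurons, was higher in hippocampus (226 to 287 in PFC, 574 to 839 in hippocampus; log2 difference -1.38, SE 0.089). Bhlhe22, of the same family, had a log2 difference of -1.45.

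Promoter sequences of the genes that separated the regions were searched for the letters bound by factors of these families. RefSeq gives a window for 12117 of the 16821 genes tested and for 42 of the 59 genes named for the size of their difference, and the 250 bases before the start of transcription were read on GRCm38. Of the 42 windows 11 hold a match to a motif searched. The 4 printed below were picked as examples after the matches were seen, Prox1 and Gpr161 for hippocampus and Gpr153 and Kcnh5 for PFC, all over 4-fold apart. The windows of Kcne2, Cdh7, Igsf1, Dkkl1, Tnnc1, Mfrp and Krt2 also hold a match to the E-box or the OTX motif. Capitals mark the matches on either strand. One motif is CAGATG, an E-box of the kind that NEUROD proteins bind. The motif of OTX proteins was searched as TAATCC in the same windows. For the EGR factors the letters were GCGTGGGCG. The windows are chr1:190170828-190171077 on the minus strand for Prox1, chr1:165295516-165295765 on the plus strand for Gpr161, chr4:152273862-152274111 on the plus strand for Gpr153 and chr12:75177333-75177582 on the minus strand for Kcnh5.
Prox1: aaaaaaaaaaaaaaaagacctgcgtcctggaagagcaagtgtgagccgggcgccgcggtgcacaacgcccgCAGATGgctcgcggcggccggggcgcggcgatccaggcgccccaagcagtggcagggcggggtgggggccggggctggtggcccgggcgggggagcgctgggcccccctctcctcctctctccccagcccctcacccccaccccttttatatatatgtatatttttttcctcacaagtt
Gpr161: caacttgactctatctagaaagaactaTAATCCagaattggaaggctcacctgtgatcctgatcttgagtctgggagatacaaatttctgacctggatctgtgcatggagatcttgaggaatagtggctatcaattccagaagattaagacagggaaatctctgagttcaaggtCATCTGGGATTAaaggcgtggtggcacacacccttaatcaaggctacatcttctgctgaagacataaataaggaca
Gpr153: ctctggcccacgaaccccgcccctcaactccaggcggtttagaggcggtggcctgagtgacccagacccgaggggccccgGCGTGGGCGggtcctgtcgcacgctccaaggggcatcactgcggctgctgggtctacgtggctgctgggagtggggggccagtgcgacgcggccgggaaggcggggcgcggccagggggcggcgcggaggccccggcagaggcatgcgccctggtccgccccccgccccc
Kcnh5: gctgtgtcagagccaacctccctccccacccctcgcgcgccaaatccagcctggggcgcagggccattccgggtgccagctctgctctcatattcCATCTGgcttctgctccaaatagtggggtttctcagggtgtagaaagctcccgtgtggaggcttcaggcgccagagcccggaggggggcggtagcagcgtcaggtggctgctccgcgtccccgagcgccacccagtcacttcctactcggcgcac
The E-box match began 179 bases before the start in Prox1, 76 in Gpr161, where an OTX match follows it directly, and 155 in Kcnh5. The EGR match in Gpr153 began 170 bases before the start.

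The same letters were counted in the windows of all genes tested, here with the 50 bases after the start added to the 250 before it. These shares thus cover a longer stretch than the matches given above. On both strands CAGATG was found in 12.2% of the 12117 windows, in 14% of the 457 windows of genes over 2-fold higher in PFC and in 17.5% of the 531 of genes over 2-fold higher in hippocampus. TAATCC was found in 5.57%, 7% and 7.16%. GCGTGGGCG was found in 1.19%, 0.875% and 0.188%, the last being 1 window. AAAGGTCA, the letters of an NR4A monomer site, was found in 0.916%, 1.53% and 1.13%, and TGACGTCA, the cyclic AMP response element, in 3.08%, 2.19% and 1.32%. The median GC content of the 250 bases before the start was 59.6% over all genes and 56% in either set of regional genes. Base composition thus moved with the sets, and its part in these shares was not tested. A match is a run of letters and not a bound site.

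Receptor genes gave the most frequent large differences of the 4 classes. Adra1b, the alpha-1B adrenergic receptor for noradrenaline, ran from 683 through 796 to 827 in PFC and from 53.1 through 87.2 to 109 in hippocampus. The 9.73-fold difference (log2 3.28, SE 0.15, adjusted p = 2.1e-11) was the largest toward PFC among receptors whose higher mean was at least 100. Of 14 dopamine, adrenergic and histamine receptor genes tested, 9 were higher in PFC, 6 of them over 2-fold, and 3 were higher in hippocampus, 1 of them over 2-fold. The histamine receptors Hrh1 (log2 difference 2.12, SE 0.15), Hrh2 (1.09, SE 0.067) and Hrh3 (1.40, SE 0.062) and the beta-adrenergic receptor Adrb1 (1.17, SE 0.063) were among those higher in PFC. Drd5, a dopamine receptor that raises cyclic AMP, was the exception over 2-fold. It was at 59.3 to 85.6 in PFC and 267 to 377 in hippocampus, 4.46-fold higher there (log2 difference -2.16, SE 0.12).

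Serotonin receptors divided the regions nearly gene by gene. Of 11 tested, 5 were higher in PFC and 5 in hippocampus, and only Htr7 did not pass the test (log2 difference -0.20, SE 0.098, adjusted p = 0.111), though it was called higher in hippocampus under equal library totals (-0.29, adjusted p = 0.0213). Htr2a, the excitatory receptor at which classical psychedelics act, ran from 1472 through 1874 to 2169 in PFC and from 382 through 428 to 492 in hippocampus (log2 difference 2.10, SE 0.087, adjusted p = 2.81e-12). Htr5a (0.84, SE 0.064) and Htr1f (1.02, SE 0.15) were also higher in PFC. Htr4, a receptor that raises cyclic AMP, was at 10.3 to 26.7 in PFC and 316 to 439 in hippocampus, 21.4-fold higher there (log2 difference -4.42, SE 0.18, adjusted p = 1.3e-12). In the same direction were Htr5b (-2.59, SE 0.30), Htr2c (-1.61, SE 0.11), Htr1a, the inhibitory receptor of pyramidal cells (-1.08, SE 0.080), and Htr3a, the channel-forming receptor of some interneurons (-0.61, SE 0.11). Htr2c is also known as an abundant receptor of choroid plexus, and it was at 1182 in hippocampus 6, a library poor in choroid plexus transcripts, and at 1263 to 1576 in the other 5.

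Neuropeptide receptors leaned to the hippocampus. Of 54 tested, 25 were higher there, 17 of them over 2-fold, and 9 were higher in PFC, 4 of them over 2-fold. The family was set by gene symbol, and both hippocampal counts include Prlr, the prolactin receptor, described below with choroid plexus genes. Npy2r, the presynaptic Y2 receptor for neuropeptide Y, ran from 52.8 to 79.5 in PFC (median 65.1) and from 1235 to 1566 in hippocampus (median 1412). It was 21.7-fold higher in hippocampus (log2 difference -4.44, SE 0.099, adjusted p = 7.47e-16). Tacr3, the neurokinin B receptor, was at 1.02 to 18.3 in PFC and 77.9 to 131 in hippocampus (log2 difference -3.39, SE 0.44). Trhr, the receptor for thyrotropin-releasing hormone, and Glp1r, that for glucagon-like peptide 1, each had a log2 difference of -2.38. Oxtr, the oxytocin receptor, had -1.15. On the PFC side Cckbr, the brain receptor for cholecystokinin, ran from 1538 to 1867 (median 1711) against 205 to 348 (median 262), 6.31-fold (log2 difference 2.66, SE 0.099, adjusted p = 8.08e-13). Crhr1, the receptor for corticotropin-releasing hormone, was at 661 to 855 in PFC and 238 to 306 in hippocampus (1.42, SE 0.078).

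Among orphan receptors Gpr161, a receptor of the primary cilium that restrains hedgehog signalling, was at 188 to 252 in PFC and 2111 to 2695 in hippocampus (log2 difference -3.39, SE 0.082, adjusted p = 1.64e-15). Gpr101 was at 4.05 to 24.2 in PFC and 234 to 446 in hippocampus (-4.90, SE 0.30), and its mean in striatum was higher than in either, 1101 ± 200.2 (SD, n = 6). Gpr153 was higher in PFC, at 745 to 875 against 152 to 197 (2.20, SE 0.079), and so was Adgrd1, an adhesion-type receptor, at 180.5 to 234 against 17.3 to 42.1 (2.56, SE 0.18).

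Oprk1, the kappa opioid receptor, was at 166 to 258 in PFC and 26.5 to 67 in hippocampus, a log2 difference of 2.22 (SE 0.19). The groups did not overlap, and its mean in striatum was higher than in either, 898 ± 33.8 (SD, n = 6). Of 14 striatal projection neuron markers tested, 10 were higher in PFC and 0 in hippocampus, with summed levels from 9981 to 17020 in PFC and from 7104 to 8321 in hippocampus. Drd2, which defines one class of striatal neurons, ran from 12.9 to 200.4 in PFC and from 38.4 to 75.2 in hippocampus and did not pass the test (adjusted p = 0.974). Whether striatal tissue had a part in the values of Oprk1, Foxp2 and Scn4b was not tested.

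Among receptors for glutamate and GABA the subunits differed in direction. Gria1, an AMPA receptor subunit for glutamate, ran from 7510 to 8787 in PFC and from 22730 to 26660 in hippocampus, 2.96-fold (log2 difference -1.57, SE 0.044), and was the 1 gene over 2-fold among 11 AMPA, kainate and delta receptor genes. None of 6 NMDA receptor genes was over 2-fold apart; Grin2a had a log2 difference of -0.49 and Grin1 of 0.23. Of 16 GABA receptor genes, 10 were higher in PFC and 5 in hippocampus. Gabra5, the subunit of extrasynaptic receptors in pyramidal cells, was at 1413 to 1663 in PFC and 4571 to 5116 in hippocampus (-1.62, SE 0.043, adjusted p = 4.41e-15). Gabrd, the delta subunit of other extrasynaptic receptors, was at 1539 to 1720 in PFC and 465 to 586 in hippocampus (1.69, SE 0.060), and Gabra3 was at 5167 to 6356 and 1637 to 1970 (1.61, SE 0.057). None of these 4 subunits had overlapping groups. Of 14 acetylcholine receptor genes, nicotinic and muscarinic, 6 were higher in PFC, 2 of them over 2-fold, and 5 in hippocampus, 3 of them over 2-fold. Chrna7, the nicotinic subunit of fast calcium-permeable receptors, was at 188 to 299.7 in PFC and 447 to 530.7 in hippocampus (-1.10, SE 0.10). Of 3 glycine receptor genes all were higher in PFC; Glra3 was over 2-fold higher (1.08, SE 0.18), though not under equal library totals.

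**Figure D2:**
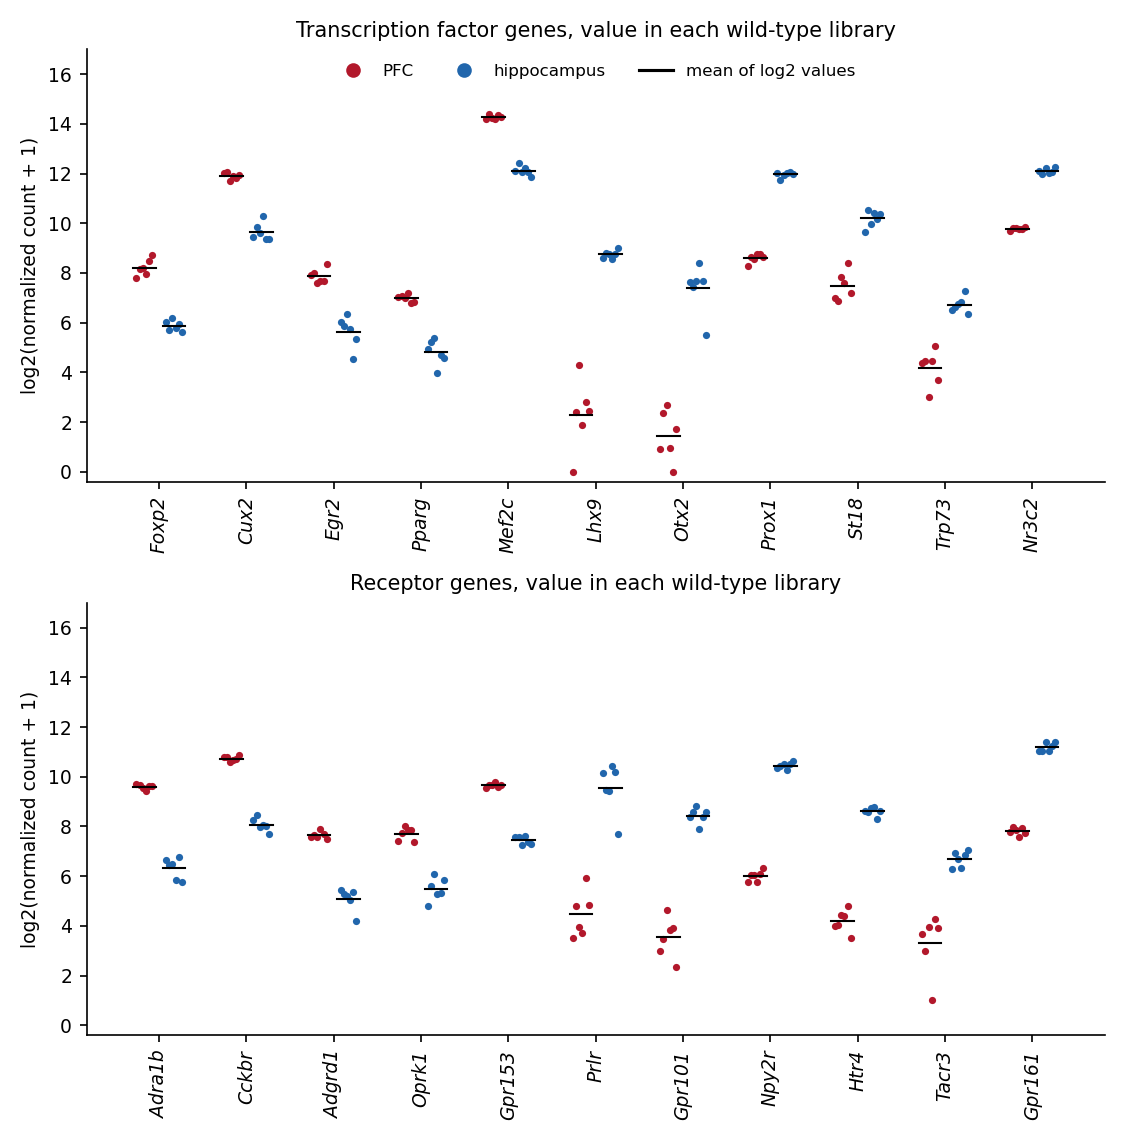
Log2(normalized count + 1) of 11 named transcription factor genes (top) and 11 named receptor genes (bottom) in each wild-type library, PFC in red and hippocampus in blue, with bars at the mean of the log2 values. The groups do not overlap for any of the 22 genes, and single low hippocampus points stand out for Otx2 (44.1) and Prlr (209), both from hippocampus 6.

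Potassium channels leaned to the PFC. Of 37 genes for the alpha subunits of voltage-gated potassium channels, 21 were higher in PFC, 9 of them over 2-fold, and 8 were higher in hippocampus, 1 of them over 2-fold. Under equal library totals the counts were 21 and 11, of which 6 and 1 were over 2-fold. The Kcnh genes form the ether-a-go-go group, which includes slow and subthreshold potassium channels, and were singled out after their values were seen. Of 8 tested, 7 were higher in PFC, 6 of them over 2-fold, and Kcnh8 was higher in hippocampus (log2 difference -0.89, SE 0.27). Kcnh1 and Kcnh6 fell under 2-fold with equal library totals. Kcnh4 ran from 788 through 871 to 905 in PFC and from 62.4 through 86.0 to 96.8 in hippocampus, 10.3-fold (log2 difference 3.37, SE 0.11, adjusted p = 4.31e-14). Kcnh5 ran from 458 to 688 in PFC and from 111 to 157 in hippocampus (2.04, SE 0.12), and Kcnh7 from 6085 to 7735 and from 1890 to 2448 (1.70, SE 0.066).

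Kcnv1, a silent subunit that forms channels only together with other potassium channel subunits, was at 3243 to 4066 in PFC and 864 to 1114 in hippocampus (log2 difference 1.90, SE 0.068). Kcnf1, another silent subunit, was higher in PFC by 1.24 (SE 0.066). Kcng2, a silent subunit as well, went the other way, at 109.9 to 158 in PFC and 439 to 921 in hippocampus (-2.06, SE 0.15), and was the 1 alpha subunit gene over 2-fold higher there. Of 22 inward rectifier and two-pore potassium channel genes, 14 were higher in PFC and 3 in hippocampus. Kcnj12, a strong inward rectifier that holds the resting potential, was at 376 to 463 in PFC and 91.3 to 172 in hippocampus (1.92, SE 0.13). Kcnt1, a sodium-activated potassium channel, was higher in PFC by 1.36 (SE 0.044).

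Other channel genes divided as follows. Scn4b, a beta subunit of sodium channels that supports fast repetitive firing, ran from 2447 to 3956 in PFC and from 583 to 691 in hippocampus (log2 difference 2.24, SE 0.11), and its mean in striatum was 17370 ± 2433 (SD, n = 6). Scn3b, another beta subunit, had the reverse difference, at 2637 to 3262 in PFC and 7382 to 8117 in hippocampus (-1.33, SE 0.048). Trpc4, a receptor-operated cation channel of the canonical TRP group, was at 396 to 447 in PFC and 1189 to 1556 in hippocampus (-1.66, SE 0.069). Of 23 genes for intracellular calcium release, store-operated and mechanosensitive channels, 10 were higher in hippocampus and 3 in PFC. Ryr3, a calcium release channel of the endoplasmic reticulum, was at 1011 to 1726 in PFC and 3999 to 4395 in hippocampus (-1.77, SE 0.10), while Itpr1, the release channel opened by inositol trisphosphate, was higher in PFC by 1.00 (SE 0.049). Scnn1a, the alpha subunit of the epithelial sodium channel, was at 20.6 to 40.8 in PFC and 169 to 230.3 in hippocampus (-2.67, SE 0.16). Cacna1h, a low-voltage-activated calcium channel, was also higher in hippocampus (-1.34, SE 0.10).

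Among adhesion and guidance genes the hippocampus had the steepest differences of the 4 classes. Dsp, which encodes desmoplakin, the plaque protein of desmosomes and a marker of dentate granule cells, ran from 0 to 11 in PFC (median 2.79) and from 1423 to 1795 in hippocampus (median 1606). The log2 difference was -8.70 (SE 0.43, adjusted p = 1.13e-09). C1ql2, a secreted C1q-like protein of mossy fibre synapses, ran from 4.73 to 9.70 in PFC (median 7.65) and from 1355 to 1597 in hippocampus (median 1384), a log2 difference of -7.42 (SE 0.14, adjusted p = 1.4e-16). Other desmosome genes were higher in hippocampus too: the cadherins Dsc3 (log2 difference -5.35, SE 0.53) and Dsg2 (-2.15, SE 0.18) and the plakophilin Pkp2 (-2.20, SE 0.12). Jup, plakoglobin, which also serves other junctions, was higher in PFC (0.35, SE 0.067, adjusted p = 0.000306). C1ql3, a paralog of C1ql2, did not pass the test (-0.06, SE 0.059, adjusted p = 0.46), though it was called higher in hippocampus under equal library totals (-0.15, adjusted p = 0.0488).

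Cbln2, a cerebellin that bridges neurexins to postsynaptic receptors, was at 1362 to 1812 in PFC (median 1666) and 204 to 233 in hippocampus (median 207), 7.51-fold higher in PFC (log2 difference 2.91, SE 0.072, adjusted p = 1.94e-15). Cadherins, the calcium-dependent adhesion molecules, were divided: of 39 tested, 12 were higher in PFC, 5 of them over 2-fold, and 16 were higher in hippocampus, 10 of them over 2-fold. Cdh22 (2.10, SE 0.053) and Cdh7 (1.67, SE 0.10) were higher in PFC, and Cdh9, which acts at mossy fibre synapses, was higher in hippocampus (-1.37, SE 0.064), as was the giant cadherin Dchs2 (-2.80, SE 0.23). Cdh22 ran from 1289 to 1479 in PFC and from 302 to 335 in hippocampus. Among 11 non-clustered protocadherins Pcdh20 was at 426 to 553 in PFC and 3507 to 4409 in hippocampus, 8.19-fold (-3.03, SE 0.068, adjusted p = 7.48e-16), Pcdh19 was higher in hippocampus as well (-1.31, SE 0.074), and Pcdh7 and Pcdh10 were higher in PFC by 1.46 (SE 0.047) and 1.23 (SE 0.052). Of 56 clustered protocadherins, 0 were over 2-fold apart. At an adjusted p under 0.05, 12 were higher in PFC and 17 in hippocampus, together 51.8% against 46.9% of all genes tested. Igsf9b, an adhesion molecule of inhibitory synapses, was at 5668 to 6755 in PFC and 1850 to 2327 in hippocampus (1.57, SE 0.056).

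Guidance genes were called in both directions. Of 33 semaphorin, plexin and neuropilin genes 10 were higher in PFC and 14 in hippocampus, and of 20 Eph and ephrin genes 8 and 10. Together these are 72.7% and 90% called, against 46.9% of all genes tested. The ligands and receptors described next were picked after their values were seen. Sema3a, a secreted repellent of axons, ran from 582 through 704 to 769 in PFC and from 99.2 through 121 to 213 in hippocampus (log2 difference 2.42, SE 0.15, adjusted p = 5.2e-10). Nrp1, the neuropilin that binds it, ran from 478 to 722 in PFC and from 1819 to 2277 in hippocampus (-1.90, SE 0.086), and Nrp2 from 691 to 841 and from 2277 to 2683 (-1.73, SE 0.059). Sema3e was higher in hippocampus (-1.74, SE 0.091), and Plxnd1, its plexin receptor, in PFC (1.53, SE 0.11). The ephrin ligand Efna5 ran from 530.2 to 681 in PFC and from 153 to 204 in hippocampus (1.75, SE 0.088), and the receptors of the same class Epha6 and Epha7 were higher in hippocampus (-2.01, SE 0.083, and -1.16, SE 0.071). The groups did not overlap for any of these genes. Of 20 netrin, slit and receptor genes, 13 were higher in hippocampus and 4 in PFC (85% called). Slit1, a repellent ligand, was at 1338 to 1957 in PFC and 6291 to 7621 in hippocampus (-1.96, SE 0.079), Slit3 had a log2 difference of -1.13 (SE 0.066), and the receptor gene Robo3 was higher in PFC (1.07, SE 0.086). Of the 4 teneurins, 3 were higher in hippocampus, among them Tenm2 (-1.46, SE 0.065) and Tenm3 (-1.22, SE 0.12), and 0 in PFC.

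**Figure D3:**
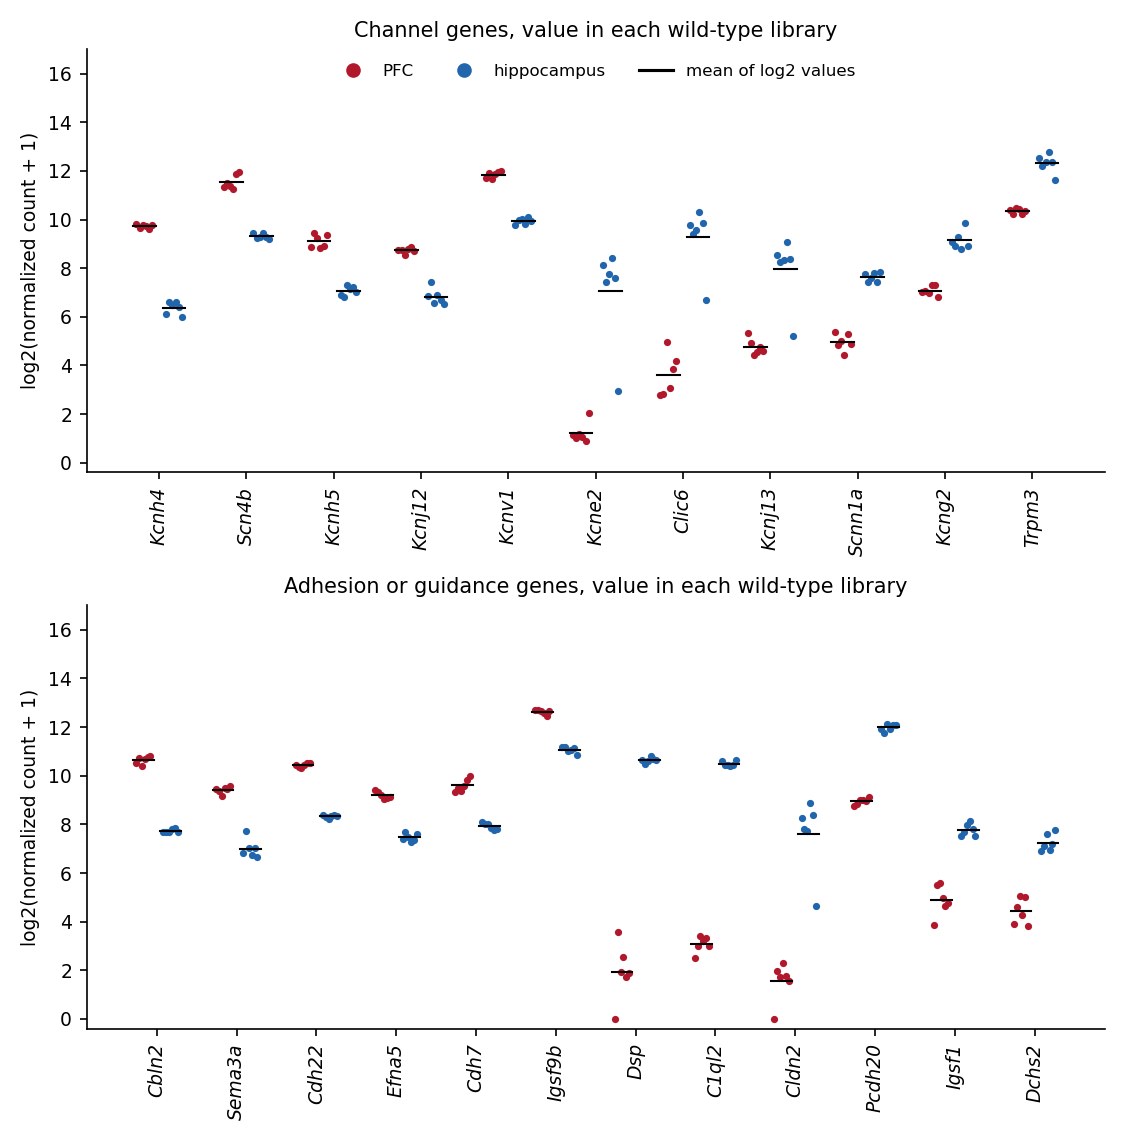
Log2(normalized count + 1) of 11 named channel genes (top) and the 12 named adhesion or guidance genes (bottom) in each wild-type library, PFC in red and hippocampus in blue, with bars at the mean of the log2 values. The groups overlap for Kcnj13 alone, where hippocampus 6 (36.5) falls within the PFC range, and Dsp and C1ql2 show the widest gaps without such a point.

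Genes over 2-fold apart in opposite directions were found within 39 of the 58 families, and within 29 where the mean in the higher region had to be at least 100. The family counts in the bar plot run from 17 neuropeptide receptors higher in hippocampus to 9 voltage-gated potassium channel alpha subunits higher in PFC. Pairs not yet described include Lmo4, a LIM-only regulator (log2 difference 1.02, SE 0.040), against Lhx9 (-6.45), and Tshz3 (1.00, SE 0.068) against Otx2 (-5.94). Under equal library totals Lmo4 and Tshz3 fell under 2-fold, while their calls held.

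**Figure D4:**
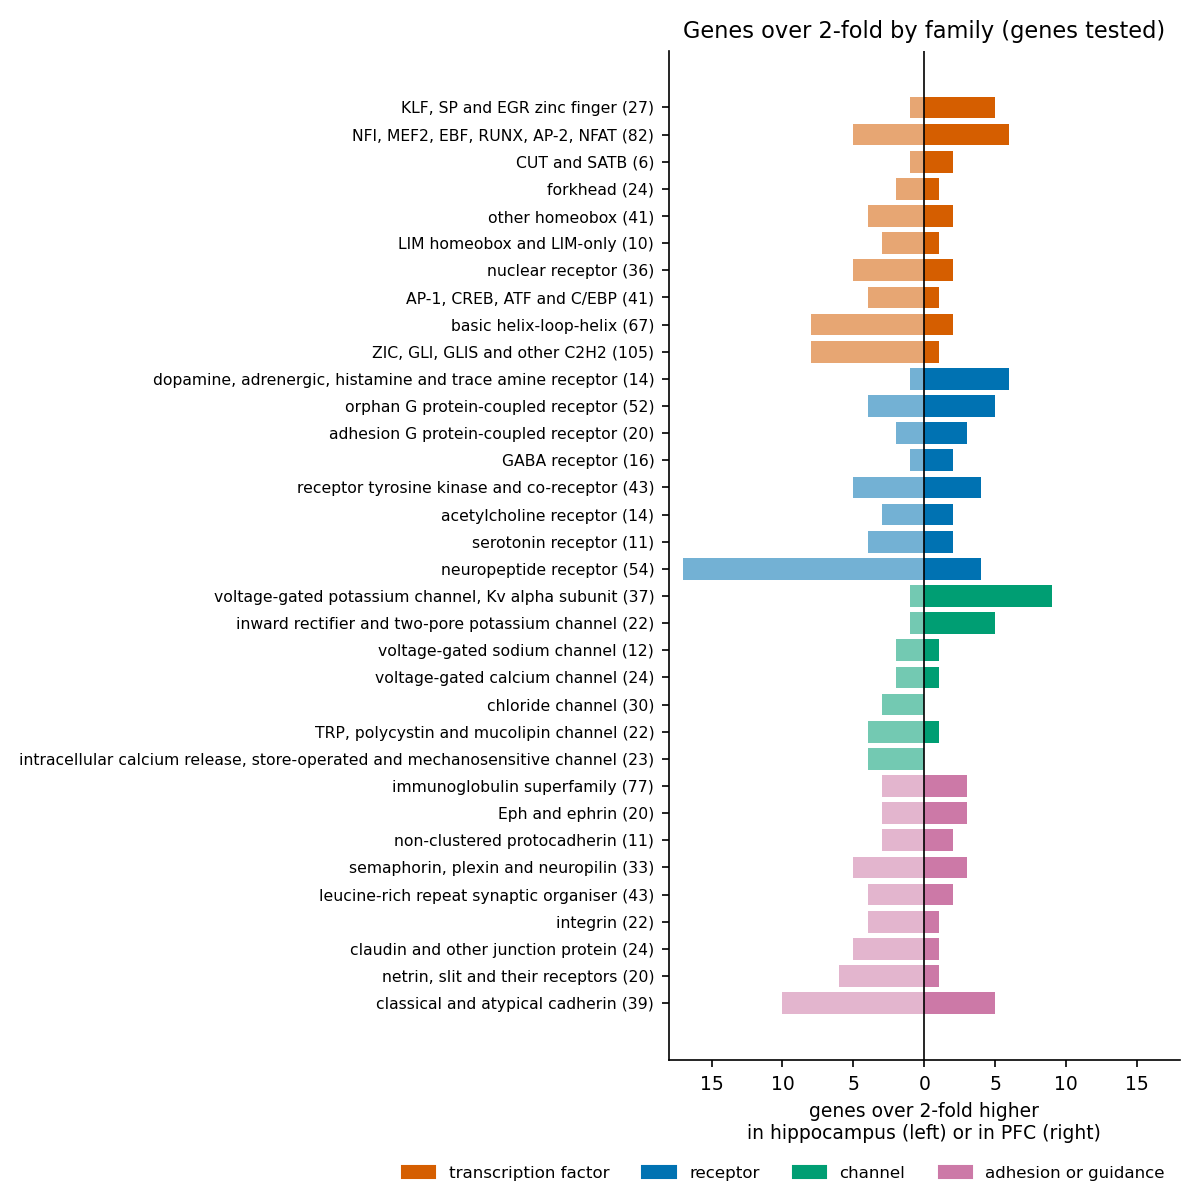
Number of genes over 2-fold higher in hippocampus (bars to the left, pale) and in PFC (bars to the right, full colour) for each family with at least 3 such genes, with the number tested in parentheses. Neuropeptide receptors (17 left, Prlr among them, and 4 right) and cadherins (10 left, 5 right) lean to the hippocampus. Voltage-gated potassium channel alpha subunits (1 left, 9 right) and dopamine, adrenergic and histamine receptors (1 left, 6 right) lean to the PFC.

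Part of the hippocampal side followed the choroid plexus, the epithelium that secretes cerebrospinal fluid in the ventricle beside the hippocampus. Ttr, which encodes the transthyretin that this epithelium secretes, ran from 15.8 to 69.5 in PFC, and from 26730 to 59900 in 5 hippocampus libraries, but was at 1298 in hippocampus 6. All 15 choroid plexus and ependymal markers were over 2-fold higher in hippocampus, with summed levels of 6516 to 8735 in PFC, 49370 to 103500 in 5 hippocampus libraries and 7519 in hippocampus 6. The PFC sums came mostly from members of the list other than Ttr. Gene by gene, Ttr, Otx2, Prlr, Cldn2 and Clic6 were higher in hippocampus 6 than in every PFC library. Of the list's members named here Kcnj13 alone was not. Several named genes followed the same libraries. Otx2, a homeobox factor of this epithelium, was at 44.1 in hippocampus 6 and at 170 to 340 in the other 5. Prlr, the prolactin receptor, was at 209 against 685 to 1372, and Cldn2, a tight-junction claudin of leaky epithelia, at 24.0 against 212 to 474. Among channels Kcne2, an accessory potassium channel subunit, was at 6.65 against 170.2 to 344, Clic6 at 101 against 674 to 1281, and Kcnj13, an epithelial inward rectifier, at 36.5 against 304 to 545. Trpm3, a heat-sensitive cation channel, was at 3119 against 4698 to 7010, and Mfrp at 22.9 against 416 to 879.

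Without hippocampus 6 these log2 differences were larger: -9.92 in place of -9.11 for Ttr, -6.32 in place of -5.94 for Otx2, -5.47 in place of -5.10 for Prlr and -6.65 in place of -6.06 for Cldn2. They were -6.65 in place of -5.83 for Kcne2, -6.17 in place of -5.65 for Clic6, -3.75 in place of -3.21 for Kcnj13, -2.09 in place of -1.95 for Trpm3 and -7.10 in place of -6.34 for Mfrp. Of the 765 genes over 2-fold higher in hippocampus, 90 were in hippocampus 6 below 50% of their mean in the other 5, and 67 were at or below the highest PFC library. Within the classes those below 50% numbered 2 of 42 transcription factors, 1 of 42 receptors, 4 of 19 channels and 4 of 48 adhesion genes. By contrast Prox1 (4052), Dsp (1619), C1ql2 (1597), Npy2r (1566), Htr4 (398) and Lhx9 (507) were in hippocampus 6 within or above the range of the other 5. Wild-type striatum held choroid plexus transcripts too, with a mean of 40540 ± 22200 for Ttr (SD, n = 6).

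**Figure D5:**
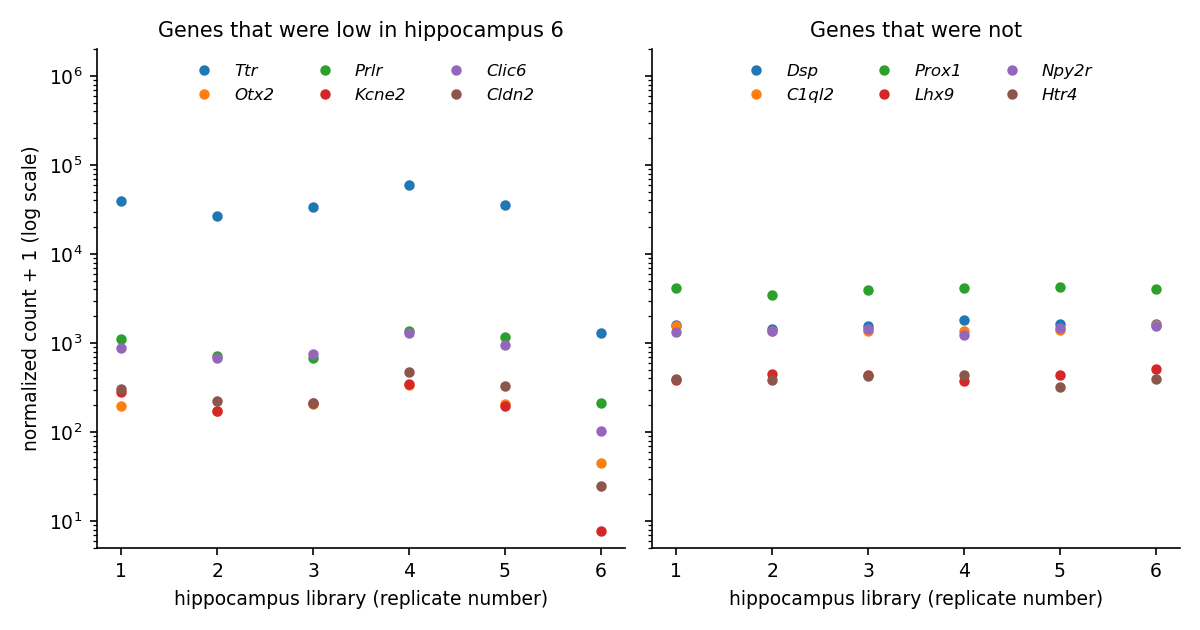
Normalized count + 1, on a log axis, of 12 genes, 6 in each panel, in each of the 6 wild-type hippocampus libraries (points, numbered by replicate). On the left, Ttr, Otx2, Prlr, Kcne2, Clic6 and Cldn2 drop in hippocampus 6, Ttr to 1298, and on the right Dsp, C1ql2, Prox1, Lhx9, Npy2r and Htr4 do not.

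Markers of layers and fields matched the labelled regions in part. For scale, 23.3% of all genes tested were higher in PFC and 23.6% in hippocampus. Of 15 upper-layer markers, 11 were higher in PFC and 3 in hippocampus, and their summed levels did not overlap (28070 to 32010 in PFC, 13630 to 14570 in hippocampus). Lamp5 (log2 difference 2.92, SE 0.069) and Rasgrf2 (1.12, SE 0.065) were among them. Of 20 deep-layer markers, 8 were higher in PFC and 10 in hippocampus, where Bcl11b (-1.21, SE 0.078), Crym (-1.70, SE 0.099), Etv1 (-0.52, SE 0.077) and Tshz2 (-1.71, SE 0.082) were higher; Bcl11b is also known as a factor of hippocampal neurons. The summed levels of the deep-layer markers were higher in hippocampus (19360 to 24120 in PFC, 26900 to 28320 in hippocampus). Sums follow the members with the highest values, and the mean log2 level over these markers was 9.457 in PFC and 9.435 in hippocampus. Of 18 dentate granule markers 12 were higher in hippocampus and 5 in PFC, of 9 CA1 markers 8 and 1, and of 18 CA2 and CA3 markers 14 and 4. Summed levels of the CA2 and CA3 markers overlapped (24150 to 27660 in PFC, 25230 to 27490 in hippocampus). Their mean log2 level was 8.531 in PFC and 9.473 in hippocampus. Summed levels of dentate granule markers (17130 to 18970, 27850 to 30590) and CA1 markers (17020 to 19390, 36380 to 40620) did not overlap. Pcp4, a calmodulin regulator and CA2 marker that deep cortical layers also hold, was higher in PFC (1.19, SE 0.054). Markers of glutamatergic neurons of either region differed by small steps: Slc17a7, the vesicular glutamate transporter, by 0.29 (SE 0.025), Camk2a by 0.15 (SE 0.034) and Nrgn by 0.76 (SE 0.033), each higher in PFC, though Camk2a did not pass the test under equal library totals (adjusted p = 0.133).

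Other cell types moved with the regions as well. All 15 oligodendrocyte markers were higher in hippocampus, 0 of them over 2-fold, with summed levels of 97450 (PFC 1) to 153300 in PFC and 163800 to 214200 in hippocampus. Of 14 microglial markers 12 were higher in PFC, again 0 over 2-fold. Of 17 interneuron markers 9 were higher in PFC and 2 in hippocampus, while Gad1 (log2 difference -0.04, SE 0.037, adjusted p = 0.44) and Gad2 (0.06, SE 0.037, adjusted p = 0.206), which make GABA, did not pass the test. Under equal library totals Gad1 was called higher in hippocampus (-0.13, adjusted p = 0.00989). Of 14 meningeal markers 7 were higher in hippocampus and 0 in PFC, among them Dcn (-2.27, SE 0.10) and Nnat (-2.76, SE 0.13), genes that hippocampal neurons also express. The part of these cell types in the gene differences above was not tested.

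The heterozygote libraries, which the wild-type comparison does not use, gave 726 genes (4.32%) over 2-fold higher in PFC and 811 (4.82%) in hippocampus. Of the 708 wild-type genes on the PFC side 578 were among them, 81.6% of the wild-type and 79.6% of the heterozygote list. On the hippocampal side the overlap was 650, 85.0% and 80.1%. Of the 1473 wild-type genes over 2-fold apart, 8 had the opposite sign in the heterozygotes. The 59 genes named for the size of their difference kept their direction, with log2 differences there of -3.31 for Prox1, -4.70 for Npy2r, -3.56 for Htr4, 3.42 for Kcnh4, 3.05 for Cbln2 and -9.03 for Dsp.

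Outside the 4 classes the genes with the largest PFC differences, among annotated genes with a PFC mean of at least 100, were Myl4, an atrial myosin light chain (log2 difference 4.28, SE 0.15), Krt80, a keratin (4.19, SE 0.47), Cd6 (4.07, SE 0.32), Rasgef1c, a Ras exchange factor (3.97, SE 0.11), Dkkl1 (3.91, SE 0.14), Tnnc1, the slow muscle troponin C (3.85, SE 0.20), Igfn1 (3.63, SE 0.49) and Tgm3, a transglutaminase (3.57, SE 0.40). Myl4 ran from 589.9 to 798 in PFC and from 25.5 to 51.5 in hippocampus, and Tnnc1 from 296 to 441 and from 14.6 to 46.6. Neither was as high in striatum as in PFC, with means of 52.8 ± 37.6 and 38.8 ± 16.4 (SD, n = 6). On the hippocampal side Krt2, another keratin, was at 0 to 5.96 in PFC and 139 to 211 in hippocampus (-6.03, SE 0.41), and at 2.69 ± 1.18 (SD, n = 6) in striatum.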

How the data were processed

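RNA was extracted from brain tissue and made into libraries with a TruSeq RNA kit, per the labels' protocols. The authors deposited 1 table of signal values, which are gene counts after scaling. Per the submitters' processing notes Salmon 1.1.0, R 3.6.2 and DESeq2 1.26.0 were used with GRCm38, with no role given. The values are not whole and whole reads could not be obtained back, so the depth before scaling is unknown, no counting interval is given, and no count model was run. Of 18548 gene identifiers 18533 matched GENCODE M21.

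Values of the 12 wild-type PFC and hippocampus libraries were transformed to log2(value + 1). Genes with a mean of at least 10 were tested with limma 3.58.1 in R 4.3.3 (group means, empirical Bayes with trend and robust option, two-sided, Benjamini-Hochberg adjustment over 16821 genes at 0.05); over 2-fold also needs a log2 difference of at least 1 in size. The heterozygote libraries were fitted in the same way. Data were simulated with 16821 genes, of which 100 were changed by 0.5 on the log2 scale and 100 by 1. Of these 55% and 84% were recovered, and 3 of 142 calls were unchanged genes. The simulated share of changed genes was far below the 46.9% called here, so these rates do not give the recovery for this comparison. Summaries used python 3.11.15, numpy 2.4.6, pandas 2.3.3 and matplotlib 3.10.9.

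Classes, families and marker lists were built from gene symbols. By size of difference, 59 genes are named: the 6 largest in each class and direction among genes over 2-fold apart with a mean of at least 100 in the higher group, and the 8 largest of any class. Beside these, marker genes with the highest means and opposed pairs within a family are named, and genes given with a family count were chosen after their values were seen. A few genes are not reported here. The members, lists and tests were chosen with earlier results of these data known. Alternatives changed the pseudocount, the filter, the scaling, limma's options, the blocks and the libraries. The labels do not say that a replicate number marks an animal; the deviations of same-numbered PFC and hippocampus libraries correlated at -0.06 to 0.06, so the numbers do not pair the samples. Of the sample codes in the column names, 5 occur in both regions, with correlations of -0.03 to 0.14.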

Additional observations from a re-analysis of the deposited data

Results flagged for a closer look

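In 8 of 112 groups of 6 wild-type libraries, over 56 of the genes named for the size of their difference, 1 library lay far from the others of its group, by a rule that chance meets in about 1 of 20 groups. The rule took untransformed normalized counts and asked for a gap to the next library above 0.625 of the group's range. In hippocampus, replicate 2 was lowest for Prox1 (3442, next 3954) and highest for Kcnj12 (171.9, next 117) and Sema3a (212.9, next 131). In PFC, replicate 5 was highest for Prlr (59.58, next 27.9), and replicate 6 for Krt80 (382.8, next 247) and Kcne2 (3.139, next 1.25). Replicate 1 was highest for Igfn1 in PFC (1299, next 1002), and replicate 3 for Lhx9 (18.55, next 6.03). None of these libraries reached the range of the other region for its gene. Leaving it out kept the direction and the call in each case. Hippocampus 6 is not among these cases, as low values stand out less on untransformed counts than on log2. It still stood apart for choroid plexus genes, with Ttr at 1298 against 26730 to 59900 in the other 5.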

How the results depend on the processing

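Each count was recomputed under 23 other fits. With a mean of at least 50 in place of 10, which tests fewer genes, 452 genes were over 2-fold higher in PFC and 444 in hippocampus, and this was the only setting that moved a count by over 1.5 times. Equal library totals moved the share of calls higher in PFC from 49.6% to 33.9%. With the replicate block 3804 genes were higher in PFC and 3811 in hippocampus, with 708 and 765 over 2-fold, of which 703 and 760 were the same genes. This block changed no call of the 59 genes named for the size of their difference. The replicate numbers do not pair the samples, so it does not test a pairing. With the sample code as a random block 4066 genes were higher in PFC and 4142 in hippocampus. Of these 708 and 769 were over 2-fold. Leaving out 1 library at a time gave 683 to 726 genes over 2-fold higher in PFC and 745 to 774 in hippocampus. Without the 3 libraries that stood apart, an alternative chosen after seeing the data, 635 and 703 of the genes over 2-fold were the same. These 59 genes kept their direction, their call and a 2-fold difference in these 23 fits, and 1 value moved by over 1.5 times, Egr2 in the heterozygote libraries (1.42 against 2.22). Of other genes named, Egr3, Glra3, Htr1f, Kcnh1, Kcnh6, Lmo4, Robo3 and Tshz3 fell under 2-fold with equal library totals. Under the same scaling Camk2a, Htr7, Gad1 and C1ql3 changed their call. The precision is set by the spread between 6 libraries a group: the 95% interval of a gene's difference reached a median of 0.18 to either side on the log2 scale.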
